A study of Mus musculus with 12 samples.

Results

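H2-M2 and H2-Q7 are class I histocompatibility genes of the mouse, and each had 1 probe that could be named on the arrays used to profile kidney RNA bound by an antibody against N6-methyladenosine (m6A). Members were the probes printed in 10 spots whose accession belongs to either gene, A_51_P191463 for H2-M2 (NM_001347387) and A_51_P262079 for H2-Q7 (NM_010394). They are 2 of 60706 probes. Symbols were given only to probes printed in 10 spots, of which there are 50, and 45 of these received one. Members were chosen by the measured difference in their array signals between the genotypes, so every comparison of cKO with WT is given as a description, without a test. The animals were male C57BL/6 mice aged 6 to 8 weeks, 3 wild-type (WT) and 3 labelled as a knockout of METTL3, the gene for the enzyme that writes m6A on RNA (called METTL3-cKO in the labels, here cKO). All 6 were a model of calcium oxalate crystal deposition and received glyoxylate by intraperitoneal injection of 200 µl at 100 mg/kg daily for 7 days. The labels do not give the promoter or the cells in which METTL3 was deleted or the substrain. RNA of each sample was split into the fraction eluted from the antibody (IP, labelled with Cy5) and the unbound supernatant (labelled with Cy3), and both were hybridised to the same array.

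Class I molecules are membrane proteins that pair with beta-2-microglobulin and hold short peptides at the cell surface. The classical molecules, encoded by H2-K1 and H2-D1, show these peptides to CD8+ T cells, and their genes are induced by interferon. H2-Q7 belongs to the nonclassical genes. It encodes Qa-2, a lipid-anchored surface protein whose presence differs between inbred strains and which the nearly identical gene H2-Q9 also encodes in some of them. H2-M2 is a nonclassical gene of the M region, at the far end of the complex, where class I genes lie among olfactory receptor genes. In the order of the RefSeq gene table, H2-Q7 had H2-Q6 and H2-Q10 as its nearest class I genes, and H2-M2 was flanked by Olfr109 and Olfr110. The same table lists 36 gene models of the H2-K, H2-D, H2-Q, H2-T and H2-M series, of which 28 are protein coding, 8 of them in the H2-Q series and 12 in the H2-M series. Probe sequences were not used here, so how far a probe takes signal from a relative was not analysed. The H2-Q7 values in particular may hold signal of other H2-Q transcripts.

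The start regions of both genes are shown for comparison with those of their relatives. The lines give the 250 bases before the RefSeq start site, 5′ to 3′, from chr17:37483555-37483804 (minus strand) for H2-M2 and chr17:35438905-35439154 (plus strand) for H2-Q7, both in GRCm38.p6. Capitals mark matches to the searched motifs on either strand.
H2-M2: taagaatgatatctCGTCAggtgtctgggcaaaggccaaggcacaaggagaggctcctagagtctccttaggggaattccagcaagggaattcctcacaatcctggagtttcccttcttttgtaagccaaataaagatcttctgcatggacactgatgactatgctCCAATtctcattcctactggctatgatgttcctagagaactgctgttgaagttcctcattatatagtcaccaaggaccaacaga
H2-Q7: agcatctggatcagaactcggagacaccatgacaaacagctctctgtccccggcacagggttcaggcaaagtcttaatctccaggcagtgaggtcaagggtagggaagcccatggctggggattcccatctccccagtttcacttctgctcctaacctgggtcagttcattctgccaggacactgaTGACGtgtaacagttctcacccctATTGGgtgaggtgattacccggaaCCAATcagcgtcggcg

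Over the bases that could be aligned, gaps left out, the H2-Q7 window was 97.6% identical to that of H2-Q6, 89.5% to H2-Q4, 88.2% to H2-K1, 85.8% to H2-D1 and 82.0% to H2-Q10. For H2-M2 the closest of 21 class I windows was H2-T22 at 71.3% over 171 aligned bases, with a median of 63.6%. Windows of genes outside class I were not aligned. How far these values lie above those of unrelated windows is therefore not known. The CCAAT box was matched once before H2-M2 and at 2 places before H2-Q7, on opposite strands. It is present in 34.5% of all 27018 promoter windows and in 19 of 22 class I windows. The core TGACG of the cyclic AMP response element, part of the conserved upstream module of class I genes, was matched once in each window, 64 bases before the start of H2-Q7 and, on the opposite strand, 236 bases before that of H2-M2. It is present in 17.9% of all windows and in 11 of 22 class I windows. In those other than H2-M2 the match lay 22 to 107 bases before the start. The H2-M2 match is thus farther away, and whether it is part of that module was not tested. Nearer its start, before the CCAAT match, the H2-M2 window reads ggacactgatgact. H2-Q7 reads ggacactgaTGACG at its match. Of the other motifs, the interferon response core is present in 3.04% of all windows and in 2 of 22 class I windows. The kappa B site is present in 1.40% and in 1 of 22 in its open form, and in 0.0222% and in 3 of 22 as a palindrome. The GC box GGGCGG is present in 32.9% and in 1 of 22, and the TATA box TATAAA in 13.0% and in 12 of 22. None of these had an exact match in either window, on either strand. No match says only that these letters are not in this window. Near matches were not searched in either window, but the printed H2-Q7 window holds some. Upstream of its TGACG match, a stretch differs from the kappa B palindrome only in the last letter. Shortly after that stretch, another differs from the interferon response core, read on the opposite strand, only in the last letters. The search thus does not show that H2-Q7 lacks these elements, and whether the stretches act as such was not tested. The matches in capitals do not overlap each other. A match is a description of letters and not of a bound site.

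Both probes were measured well. All 55 unflagged spots of H2-M2 and all 54 of H2-Q7 over the 6 arrays were well above background in both channels, and no spot was saturated. Spots of a probe differed little on an array, with a coefficient of variation of 3.55% to 6.60% for H2-M2 and 1.92% to 4.72% for H2-Q7 in IP. For the unbound RNA it was 3.07% to 5.89% and 2.04% to 5.12%. The error of a difference therefore comes from the animals and arrays, and their number, 3 per genotype, limits the precision.

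The arrays differed in other ways. The IP channel detected 52.1% to 56.1% of all probes above background. The supernatant channel detected 38.4% of them on WT array 1 and 31.7% on WT array 3, but 49.9% to 56.9% on the other 4. WT arrays 1 and 3 shared 1 scan time in the file headers (scan 1), and WT array 2 was scanned with the 3 cKO arrays (scan 2). Scan time and genotype thus overlap on WT array 2 alone. The dye normalisation multiplied the supernatant signal by 20.5 on WT array 3 and by 7.5 to 11.5 on the others, with 10.7 on WT array 1. It multiplied the IP signal by 11.8 on WT array 2 and by 6.8 to 8.4 on the others. No probe could be given the symbol Mettl3, so a check of the labels against the targeted gene was not made.

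H2-M2 signal was higher in cKO in both fractions. The total signal is log2 of the sum of both channels after each was divided by its 75th percentile, which puts a probe that sits at that percentile in both colours at 1. The WT arrays, in the order of their replicate numbers, gave H2-M2 values of 4.88, 4.64 and 4.84, whereas the cKO arrays gave 5.93, 5.52 and 5.61. The lowest cKO array lay 0.64 above the highest WT array. The means were 4.79 ± 0.13 and 5.69 ± 0.21 (SD, n = 3), a difference of 0.90 or 1.87-fold. In these bulk samples, more RNA per cell and more cells that express the gene cannot be told apart.

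The processed intensities, before any scaling to the 75th percentile, also separated the genotypes for H2-M2, although WT array 2 was the highest WT array here and the lowest in total signal. In the IP channel the WT arrays had 6285, 9160 and 6995 and the cKO arrays had 15913, 13436 and 14275. In the supernatant they were 5334, 7322 and 6132 against 15402, 10562 and 12842. Each cKO array was brighter than each WT array in both colours, by 1.96-fold in IP and 2.06-fold in supernatant between the geometric means. Without the dye normalisation, the background-subtracted IP intensities of WT animals were 910, 689 and 905, and those of cKO animals 2160, 1516 and 1657. The supernatant gave 507, 719 and 309 for WT animals, against 1939, 1023 and 1310 for cKO animals. The genotypes did not overlap here either, and the fold between geometric means was 2.12 in IP and 2.85 in supernatant. These unscaled values also hold the brightness of the whole array. Scaled to the 75th percentile, still without dye normalisation, H2-M2 differed by 0.95 (log2) in IP and 0.83 in supernatant. The share of all probes that separate the genotypes before scaling was not computed.

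**Figure D1:**
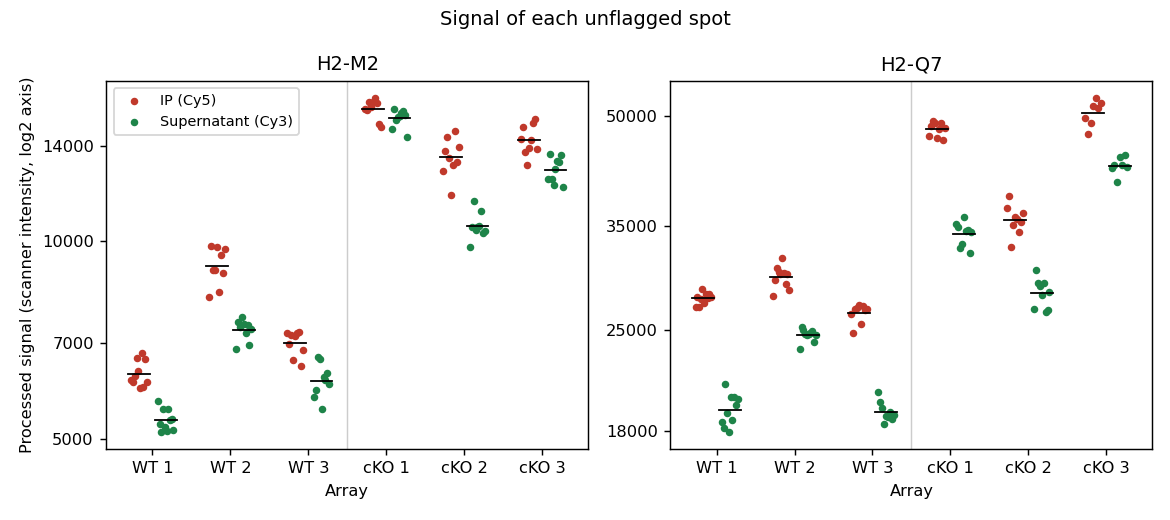
Processed signal of every unflagged spot of the H2-M2 and H2-Q7 probes on each array, on a log2 axis that differs between the panels, with IP (Cy5) in red, supernatant (Cy3) in green and the geometric mean of the spots as a bar. All H2-M2 bars of cKO arrays lie above all WT bars of the same colour, from 10562 against at most 7322 in supernatant, and spots of 1 array scatter less than arrays do.

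H2-Q7 had a smaller difference that was close to the distance between its lowest and highest WT array. The WT arrays gave total signals of 6.90, 6.36 and 6.63, and the cKO arrays gave 7.32, 6.94 and 7.39, in the same order. The genotypes were separated by 0.04, the gap between WT array 1 and cKO array 2. The means were 6.63 ± 0.27 and 7.21 ± 0.24 (SD, n = 3), a difference of 0.59 or 1.5-fold.

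In processed intensity, H2-Q7 had 27675, 29662 and 26396 on the WT arrays and 47869, 35695 and 50447 on the cKO arrays in the IP channel. In the supernatant it had 19290, 24586 and 19176 against 34089, 28132 and 42556. The lowest cKO value, that of cKO array 2 in each colour, was above the highest WT value, that of WT array 2. After scaling, the IP signal overlapped between the genotypes, with 6.13 on WT array 1 against 6.10 on cKO array 2, while the supernatant signal was separated by 0.14.

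Split by fraction, H2-M2 differed by 0.89 (log2) in the scaled IP signal and by 0.92 in the supernatant signal, without overlap in either. H2-Q7 differed by 0.58 in IP and by 0.60 in supernatant. In this scaling both genes thus had about the same difference in the bound and in the unbound fraction. With channels scaled by their median, the differences were 0.92 and 0.61 in IP and 0.68 and 0.36 in supernatant. In that setting the median of all probes shifted to 0.02 in IP and -0.24 in supernatant. With normexp background correction they were 0.97 and 0.73 in IP against 1.14 and 0.84 in supernatant, for H2-M2 and H2-Q7.

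Seen per spot position, which is the same on each array, the mean total signal of H2-M2 was higher in cKO at 10 of 10 positions, by 0.76 to 1.00, and the genotypes overlapped at none of them. For H2-Q7 it was higher at 10 of 10 positions, by 0.45 to 0.81, and the genotypes did not overlap at 7. Flagged spots were left out, so some positions hold fewer than 3 arrays of a genotype. The 0.76 of H2-M2 and the 0.81 of H2-Q7 each rest on 1 cKO array. Spots of an array share their RNA and are not replicates of the genotype.

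**Figure D2:**
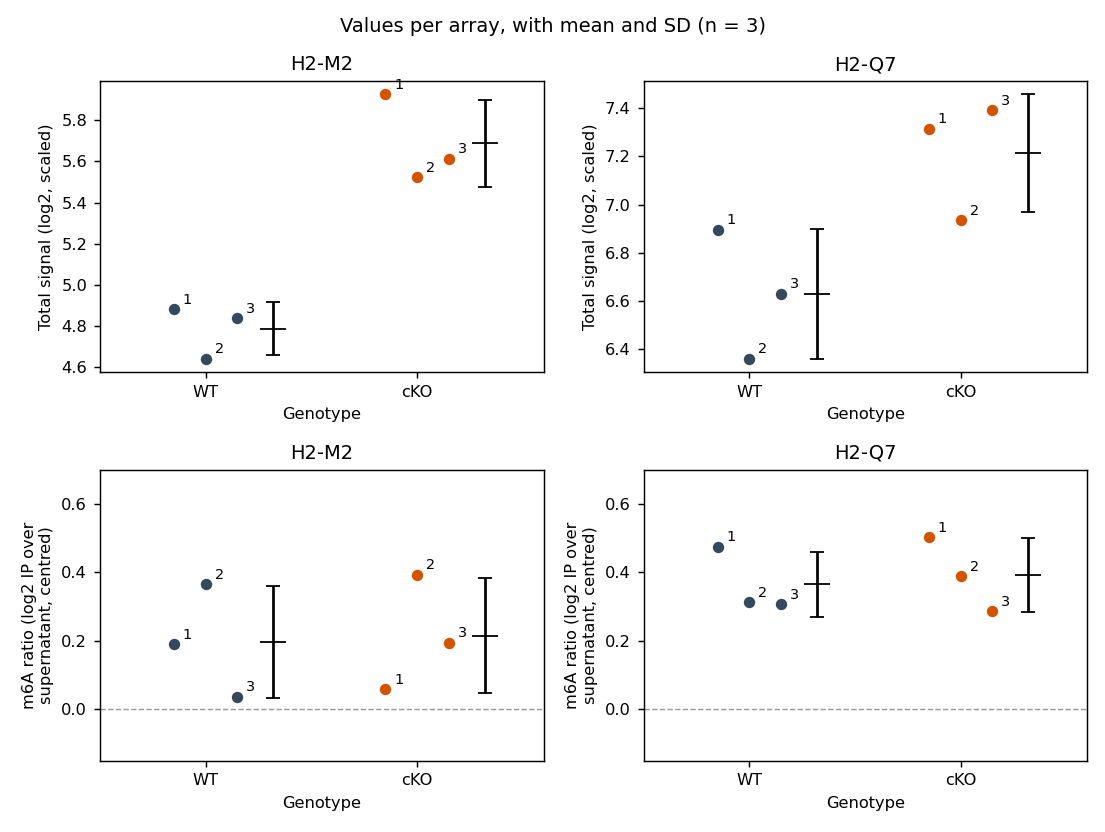
Total signal (top, log2, scaled, axes not starting at 0) and m6A ratio (bottom, log2 of IP over supernatant relative to the median probe) of H2-M2 and H2-Q7, 1 point per array with its replicate number, and mean with SD (n = 3) beside it. Total signal is higher on the cKO arrays for both genes, by 0.90 and 0.59 between the means, whereas the ratios of the genotypes overlap.

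These differences came from the contrast by which the genes were chosen, and the rates over all probes are given for scale only. The 3 cKO arrays lay above the 3 WT arrays in total signal for 6.14% of probes, in IP signal for 6.94% and in supernatant signal for 9.44%. In limma's test, at an adjusted p under 0.05, 0.128% of probes were called higher in cKO in total signal (0.186% in either direction), 0.0686% in IP (0.104%) and 0.205% in supernatant (0.225%). At an unadjusted p under 0.05, 3.86% were higher in total signal. The H2-M2 difference exceeded that of 99.0% of 36069 probes with a total signal, and the H2-Q7 difference that of 96.5%. Their ranks from the top among 38 genes with a symbol were 2 and 5. The median difference was -0.01 over all probes and -0.12 over the named genes, 14 of which had a difference above 0.

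**Figure D3:**
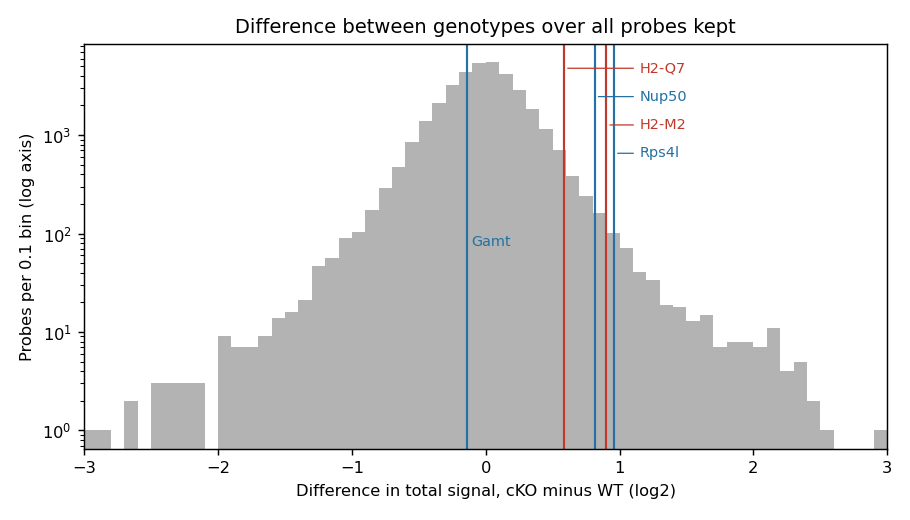
Difference in total signal between genotypes (cKO minus WT, log2) over 36069 probes, as counts per bin of 0.1 on a log axis, with H2-M2 and H2-Q7 in red and 3 other named genes in blue. H2-Q7 at 0.59, Nup50 at 0.81, H2-M2 at 0.90 and Rps4l at 0.96 lie in the right part of the distribution and Gamt at -0.14 near its middle.

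The differences were larger within 1 scan. On scan 2 alone, which has WT array 2 and the 3 cKO arrays, total signal differed by 1.05 for H2-M2 (2.07-fold) and by 0.85 for H2-Q7 (1.81-fold). WT array 2 was the lowest WT array in total signal for both genes. Leaving out 1 array at a time gave 0.78 to 0.98 for H2-M2 and 0.45 to 0.72 for H2-Q7. For H2-Q7 the lowest value was that without WT array 2. Under 3 other ways to process the signals, the genotypes did not overlap in total signal either. The gap between them was 0.46 to 0.71 for H2-M2 and 0.02 to 0.09 for H2-Q7. The H2-Q7 IP signal overlapped under each of these, with gaps of -0.10, -0.005 and -0.13. Its supernatant signal did not, nor did H2-M2 in either fraction. The share of all probes without overlap under these ways is not given.

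The recovery of the transcripts by the antibody, IP against supernatant, is not the contrast by which the genes were chosen, and it was tested. It is formed from the same signals, so whether the choice bears on it is not known. The m6A ratio is log2 of IP over supernatant signal, relative to the median probe of the array. H2-Q7 lay above the median probe on 6 of 6 arrays. Its ratio was 0.47, 0.31 and 0.31 on the WT arrays and 0.50, 0.39 and 0.29 on the cKO arrays. The mean was 0.37 ± 0.10 (SD, n = 3) in WT, with a 95% confidence interval of 0.03 to 0.70, and 0.39 ± 0.11 in cKO, with 0.06 to 0.73. In limma's test with Benjamini-Hochberg adjustment over 28363 probes it passed the threshold in cKO (1.31-fold, adjusted p = 0.0447) and missed it in WT (1.29-fold, adjusted p = 0.0516). Of all probes, 28.5% were called above the median probe in cKO (58.2% in either direction) and 33.2% in WT (67% in either direction).

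The H2-Q7 call in cKO is not firm. It was lost without WT array 1 (adjusted p = 0.0508), WT array 2 (0.0507), cKO array 1 (0.158), cKO array 2 (0.155) or cKO array 3 (0.113) in limma's test, and with the scan as a block (0.141). With the replicate number as a block, the WT ratio passed (adjusted p = 0.0447 in limma's test). With the ratio centred on all probes, WT passed at 0.50 (adjusted p = 0.0210 in limma's test) and cKO did not, at 0.36 (0.0812).

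H2-M2 lay closer to the median probe. Its ratio was 0.19, 0.36 and 0.04 on the WT arrays and 0.06, 0.39 and 0.19 on the cKO arrays, above 0 on each. The mean was 0.20 ± 0.16 (SD, n = 3) in WT, with a 95% confidence interval of -0.15 to 0.55, and 0.22 ± 0.17 in cKO, with -0.14 to 0.57. It did not pass in either genotype in limma's test (adjusted p = 0.283 and 0.260), and the intervals reach up to 0.55 and 0.57. In WT, though not in cKO, H2-M2 passed in 3 of 19 alternatives, with normexp (0.49, adjusted p = 0.0288 in limma's test), with normexp, loess and Aquantile (0.25, 0.0211) and with another centring (0.45, 0.0235).

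The ratios were modest beside other transcripts. H2-Q7 ranked 23 of 34 named genes with a ratio in WT and 19 in cKO, and H2-M2 ranked 24 in WT and 25 in cKO, counted from the highest mean ratio. Over all probes, 61.7% had a lower mean ratio than H2-Q7 in WT and 66.2% in cKO, and 55.8% and 59.2% had a lower one than H2-M2. Because IP was labelled with Cy5 on each array, a dye effect of a probe and its recovery by the antibody cannot be told apart.

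Between the genotypes the ratios lay close together. The ratio of H2-M2 differed by 0.02 and that of H2-Q7 by 0.03, with overlapping arrays. Over all probes 1 of 28363 (0.00353%) was called in either direction and 0% higher in cKO, and the cKO arrays lay above the WT arrays for 14.1%. Both differences are under the SD between arrays of a genotype. Their sign was not stable: over the alternatives they ranged from -0.20 to 0.14 for H2-M2 and from -0.15 to 0.23 for H2-Q7. The median probe differed by 0.03 in the same fit.

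**Figure D4:**
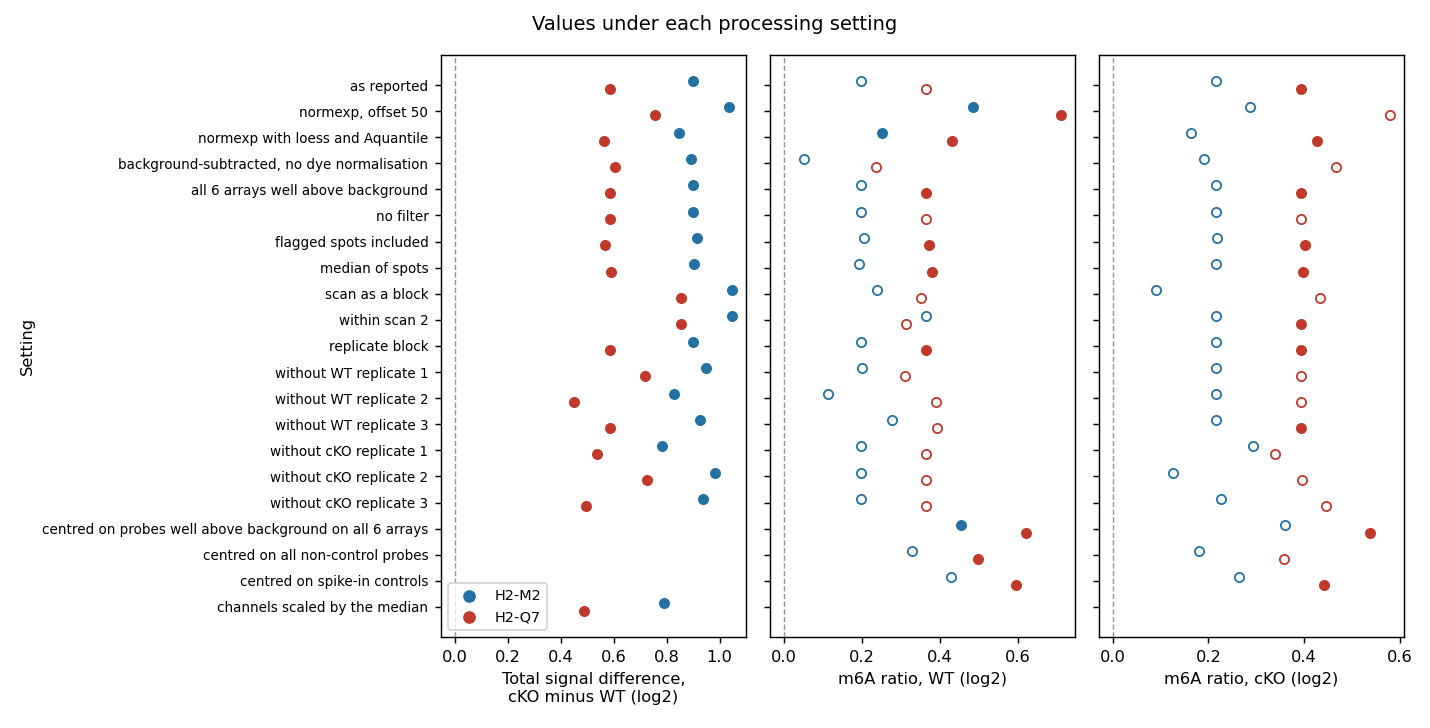
Total signal difference (left) and m6A ratio in WT (middle) and cKO (right), all in log2 units, of H2-M2 in blue and H2-Q7 in red under each way to process the data, the reported one on top. In the ratio panels filled points passed an adjusted p under 0.05 in limma's test and open ones did not; in the left panel no test was made and all points are filled. The difference in total signal stays above 0 in all settings, between 0.78 and 1.05 for H2-M2 and between 0.45 and 0.85 for H2-Q7, whereas the calls in the ratio change.

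The patterns of both genes over the 6 arrays were compared with those of the other named genes, as a description over arrays that share animals, scans and scaling. Because both genes were chosen by their difference between the genotypes, a correlation in total signal over these arrays largely follows from that choice, and so does a high value for any other gene that differs the same way. In total signal H2-M2 and H2-Q7 correlated at r = 0.89 over the 6 arrays. The genes most like H2-M2 among 37 were Rps4l, a ribosomal protein gene model, at 0.93, H2-Q7, and Nup50, a gene of the nuclear pore basket, at 0.87. Those most like H2-Q7 were Nup50 at 0.98, Rps4l at 0.92 and H2-M2. The total signal of Nup50 was 2.01, 1.14 and 1.73 on the WT arrays and 2.46, 2.18 and 2.68 on the cKO arrays, with WT array 2 lowest and cKO array 3 highest, as for H2-Q7. Rps4l had 4.95, 4.53 and 4.73 against 5.59, 5.61 and 5.89.

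By the same measure, the gene least like H2-M2 was Kcnn2, a potassium channel gene. Its signal was well above background on 0 of 6 arrays in supernatant and on 4 of 6 in IP, so its levels are in part bounds and no correlation is given. The gene least like H2-Q7 was Gamt, a gene of creatine synthesis that is abundant in the proximal tubule (r = -0.90). Gamt values were 1.85, 2.08 and 2.01 in WT animals and 1.88, 1.87 and 1.78 in cKO animals, so the genotypes overlapped. In the m6A ratio the genes did not follow each other, with r = -0.22. The ratio of H2-M2 was most like that of Gsdmd, a gene of pyroptotic cell death, at r = 0.96, Prdx2, an antioxidant enzyme gene, at 0.87, and Taf1a at 0.82, and least like that of Duox1, at -0.70. Gsdmd had a ratio of 0.67, 1.03 and 0.57 on the WT arrays and 0.57, 0.98 and 0.83 on the cKO arrays. For H2-Q7, Gamt (0.61) and E2f1 (0.42) were among the genes with the highest values, and Lhfp had the lowest (-0.88). In supernatant, E2f1 was well above background on 3 of 6 arrays, Taf1a on 4 and Duox1 on 5. E2f1 was so on 5 of 6 in IP. The correlations of these 3 genes therefore rest in part on signal near the background.

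Other genes of the class I pathway could not be followed. None of 61 genes in the lists of class I heavy chains, peptide loading, interferon response and class I receptors had a probe with a symbol. Of 38 markers of kidney cells, leukocytes and tubule injury, 2 had one, Gamt and Mzb1, a chaperone gene of plasma cells. The total signal of Mzb1 was -0.96 to -0.75 on the WT arrays and -1.22 to -0.66 on the cKO arrays, so that the genotypes overlapped. No marker of macrophages, T cells or NK cells was among the named probes, and the part of such cells in the class I signals was not tested.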

How the data were processed

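The data are 12 samples on 6 two-colour arrays. Agilent Feature Extraction 11.0.1.1 produced the deposited intensities, per the submitters' processing notes, with both colours of an array in 1 file. Other values in the deposited files are flags of spots. Fits were made by limma 3.58.1 under R 4.3.3. Promoter windows from RefSeq (GRCm38.p6) were searched and aligned with Biopython 1.88. Spots marked as outliers in either colour were left out and the rest averaged as log2 processed signals. An array counted for a probe if at least 0.5 of its spots there were well above background, and 3 such arrays were required, judged by both colours for the ratio and by either colour for the total signal. Ratios were centred on the median kept probe. limma's lmFit and eBayes, two-sided, called a probe at a p under 0.05 after Benjamini-Hochberg adjustment, with 1 fit for both genotypes, and the steps were tested on simulated data. A missing array value of a probe was left out of its fit, which happened for neither gene.

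Members and lists were chosen with earlier results of these data known. The named genes were the members, per member and measure the 3 most and 1 least correlated genes with a symbol, and list genes with a probe. 1 gene that this rule names is not reported here. The labels call the 3 samples of a group biological replicates. Same-numbered arrays of the genotypes correlated in their deviations at -0.09, 0.24 and -0.03 in total signal and at 0.33, 0.27 and 0.08 in the ratio. In the ratio each WT array correlated best with the cKO array of its number, in total signal only WT array 2 did. Numbers were not taken as pairs, and a fit with the replicate number as a block is given as an alternative. A comparison planned by slide was made by scan time, which the headers give.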

Additional observations from a re-analysis of the deposited data

How the results depend on the processing

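The differences in total, IP and supernatant signal were above 0 for both genes in 17 of 17 alternatives, with a total signal of 0.78 to 1.05 for H2-M2 and 0.45 to 0.85 for H2-Q7. Both ratios were above 0 in 19 of 19 alternatives. The causes of the following changes were not tested.

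With the scan as a block and within scan 2, H2-Q7 differed by 0.85 in total and 0.89 in IP signal, and H2-M2 by -0.15 in the m6A ratio. With normexp, H2-Q7 differed by 0.84 in supernatant, and the ratio differences were -0.20 (H2-M2) and -0.13 (H2-Q7). Channels scaled by the median gave supernatant differences of 0.68 and 0.36, with a median probe at -0.24 there and -0.13 in total signal. Ratio differences centred on all probes were -0.15 and -0.14, on spike-in controls -0.16 and -0.15, settings chosen after seeing the data. That of H2-Q7 was 0.23 without dye normalisation and -0.083 when centred on probes well above background on all arrays.

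The H2-M2 ratio in WT passed at 0.49 (normexp), 0.25 (normexp, loess and Aquantile) and 0.45 (centred on probes well above background on all arrays). The H2-Q7 ratio in WT passed at 0.71, 0.43 and 0.62 in these settings, at 0.37 with the strict filter, 0.37 with flagged spots, 0.38 with spot medians, 0.50 centred on all probes, 0.60 on spike-ins and 0.37 with the replicate block (adjusted p = 0.0447 in limma's test), which changed no other call of the members. The H2-Q7 ratio in cKO missed the threshold at 0.58 (normexp), 0.47 (no dye normalisation), 0.39 (no filter), 0.43 (scan as a block) and 0.36 (centred on all probes). Without 1 array it was 0.34 to 0.45.

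Of probes called in the ratio, 49.5% lay above the median probe in WT and 48.9% in cKO. When centred on probes well above background on all arrays the shares were 60.6% and 57.1%, with spike-ins 59.2% and 51.3%, centred on all probes 55.4% and 46.9%, and with the strict filter 39.7% and 42.1%. Calls between genotypes numbered 67, 1, 35 and 70 in total signal, ratio, IP and supernatant. In this order they were 20, 0, 18 and 24 with normexp and 22, 116, 5 and 28 with loess and Aquantile added. The scan as a block gave 2, 0, 0 and 1, within scan 2 gave 3, 0, 5 and 159, and the replicate block gave 28, 0, 11 and 0. Ratio, IP and supernatant counts were 3, 17 and 42 without dye normalisation and 0, 4 and 16 without a filter. The ratio count was 76 with the strict filter and 0 with spike-ins. Without 1 array the counts were 4 to 42, 0 to 2, 0 to 11 and 0 to 100. Of calls in total signal 68.7% were higher in cKO, against 54.6% with channels scaled by the median, and of those in supernatant 91.4% against 78.0%.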
